A study of Homo sapiens with 6 samples.

Results

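Protocadherins are cadherin-like adhesion molecules of the cell surface, best known from neurons. The transcripts of 75 human genes whose official symbol begins with PCDH were followed here in A375SM cells, a metastatic derivative of the melanoma line A375, among 40895 genes in all. The members were taken from the RefSeq gene table (assembly GRCh38.p14) by NCBI gene identifier. That table lists 83 such symbols, and 8 of them, entries for whole clusters or their constant region, pseudogenes and an antisense RNA, have no row in the files and are not analysed here. Of the 75 genes, 15 encode proteins of the alpha cluster (PCDHA), 16 of the beta cluster (PCDHB) and 22 of the gamma cluster (PCDHG), all on chromosome 5, and 13 encode non-clustered protocadherins. The remaining genes are 4 pseudogenes and 5 noncoding RNAs.

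The study holds 6 polyA RNA-seq libraries of A375SM cells, 3 transduced with a control hairpin (shCtrl) and 3 with a hairpin against the mRNA of PRAME, a cancer-testis antigen (shPRAME). Both groups have the genotype label WT and carry a hairpin vector, and no untransduced cells are among the samples. The sources used here do not give the number or sequences of the hairpins, nor whether the libraries come from separate transductions. P-values therefore cover only the spread among these 6 libraries, possibly a technical one, and the differences below are not assigned to PRAME.

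In the 53 clustered genes each promoter lies in front of its own first exon. In the alpha and gamma clusters that exon is spliced to constant exons common to the whole cluster, whereas beta genes are single exons. The transcription factor CTCF and the cohesin complex bring a promoter into contact with a distant enhancer, and a neuron uses only some of the promoters, which gives it a surface identity. The extracellular domains bind the same isoform on a neighbouring cell. Non-clustered protocadherins stand alone in the genome and act in weaker adhesion, cell sorting and cell movement, and several have been described as silenced by promoter methylation in tumours.

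Most clustered promoters carry a conserved element with the letters CGCT at its core, shown here because the members that differ most can be compared over it. RefSeq promoter sequences (GRCh38.p14) were matched for 61 of the 75 genes, 47 of them protein-coding members of the clusters. Within the 250 bases before the start, CGCT was found on the sense strand in 12 of 13 alpha, 13 of 14 beta and all 20 gamma genes matched, against 51.9% of 27305 genes with an entry. The window of 28 letters around the CGCT most like its cluster's majority is printed below on the plus strand, 5′ to 3′, with CGCT in capitals. The letters after the start site are left out for PCDHB5. The windows of PCDHA11 and PCDHAC2 had 15 and 16 of 28 letters like the alpha majority, where the median of the alpha windows was 24. A CGCT alone does not identify the conserved element, and whether these 2 windows hold it was not tested.
PCDHA1, chr5:140786090-140786117: gccacatgatgtCGCTgtacaccacaaa
PCDHA6, chr5:140827901-140827928: gccgcatgatgtCGCTgtctaccatgaa
PCDHA8, chr5:140841134-140841161: gccacatgatgtCGCTgtctaccaagaa
PCDHA11, chr5:140868887-140868914: ggcgcaaggtgtCGCTctttacttggtg
PCDHAC2, chr5:140966369-140966396: gcagtccgggttCGCTgtccgccacttc
PCDHB2, chr5:141094548-141094575: gacgcggggtggCGCTgcagccttagaa
PCDHB5, chr5:141135183-141135205: gacgcctggtggCGCTgcaggct
PCDHB13, chr5:141213869-141213896: gacgcgtggtggCGCTgcaggataagaa
PCDHB16, chr5:141182314-141182341: aacgcgtggtggCGCTgcaggttaagat
PCDHGA2, chr5:141338707-141338734: gcctctgagcgtCGCTgttgaccaccta
PCDHGB1, chr5:141350029-141350056: acctctgggcgcCGCTgtcgaccaaaag
PCDHGB4, chr5:141387621-141387648: gactctgggcgcCGCTgttggccaaagt
PCDHGB5, chr5:141397867-141397894: gactctgggcgcCGCTgttggccaaagt
PCDHGC3, chr5:141475884-141475911: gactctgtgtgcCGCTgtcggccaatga

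The letters before the core differ in frequency between the clusters. GTCGCT, searched on the sense strand, was in 11 of 13 alpha genes, 2 of 14 beta genes, 6 of 20 gamma genes and 3.96% of all genes with an entry. On the same strand GGCGCT was in 12 of 14 beta genes, 3 of 20 gamma genes, no alpha gene and 11.9% of all genes. With both strands searched it was in 9 of 20 gamma genes and 20.9% of all genes. GCCGCT was on the sense strand in 13 of 20 gamma genes, in no alpha or beta gene and in 11.7% of all genes. Each of these contains CGCT. The windows of PCDHGB4 and PCDHGB5 were the same in 28 of 28 letters, and those of PCDHA6 and PCDHA8 in 26 of 28. A match is a description of the letters and does not show that a factor binds there.

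The targeted gene PRAME had 5623, 5356 and 5083 counts in shCtrl against 1803, 1993 and 1857 in shPRAME. Levels here are CPM, the counts per 1e+06 counts of a library with the total scaled by the TMM method. PRAME stood at 164.9 ± 1.26 CPM against 56.4 ± 2.29 CPM (mean ± SD, n = 3 each, edgeR adjusted p = 4.85e-17). Library totals lay between 30842788 and 34107332 counts. Of 7 melanoma markers 3 were tested, and 2 of these fell (66.7%), where 36.8% of all genes tested did. SOX10 (266 ± 7.95 and 275 ± 1.48 CPM) was well expressed and did not pass. MITF, also well expressed, fell from 44.6 ± 1.38 to 37.6 ± 0.739 CPM (edgeR adjusted p = 2.05e-05). S100B, a calcium-binding protein of melanocytes and glia, fell from 54.0 ± 0.629 to 28.2 ± 1.26 CPM (edgeR adjusted p = 9.43e-13). TYR had no count, and MLANA, PMEL and DCT stayed under 0.3 CPM in the mean of either group.

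Protocadherin genes were mostly higher in shPRAME than in shCtrl cells, apart from the gamma cluster. Of the 75 genes, 62 had enough counts to be tested, and of these 43 rose, 9 fell and 10 did not pass (edgeR, Benjamini-Hochberg adjusted p under 0.05 over 15954 genes, of which 74.4% passed in either direction). The groups did not overlap in 51 of the 62, against 76.5% of all genes tested. The share that rose was 69.4%, where 37.7% of all genes tested rose, and the share that fell was 14.5%, where 36.8% fell. At least 2-fold increases were found in 39 members, a size and direction reached by 10.1% of all genes tested, and at least 2-fold decreases in 5, against 8.43%. Of the 43 that rose, 7 had under 10 counts in every shCtrl library (PCDH7, PCDH15, PCDHA12, PCDHAC1, PCDHB3, PCDHB19P and PCDH10-DT) and entered the test through their shPRAME counts. PCDHA1, PCDHA2, PCDHA11, PCDHB8 and PCDHGA3 had under 10 counts in part of the shCtrl libraries. These also passed the filter on low counts only with their shPRAME counts. All these genes count in the 69.4% and the 39 above, though a gene that enters so can hardly be called lower. Over all 15954 genes tested, 527 had under 10 counts in every shCtrl library. The median log2 fold change of the 62 tested members was 1.53, and that of all genes tested was 0.01. In such bulk libraries more cells that express a gene and more RNA per cell cannot be told apart.

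The summed levels show the divide between the clusters. Alpha genes together stood at 13.4, 12.3 and 14.4 CPM in the shCtrl libraries and at 92.9, 86.9 and 87.7 CPM in the shPRAME libraries, 6.66-fold more on average. Beta genes stood at 21.4, 23.1 and 22.8 against 128.1, 125.4 and 127.9 CPM, 5.67-fold more. Gamma genes went the other way, with 402.3, 395.7 and 395.1 CPM in shCtrl and 160.4, 157.1 and 157.6 CPM in shPRAME, 2.51-fold less. The sum of the 13 non-clustered genes was 47.8 ± 0.972 CPM in shCtrl and 386.6 ± 2.51 CPM in shPRAME, 8.08-fold more. In none of these sums did a library of one group reach the range of the other. The sums get no test. If each read of a shared exon was counted once, they do not depend on how such reads were divided among a cluster's genes. The sources used here do not say whether it was.

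**Figure D1:**
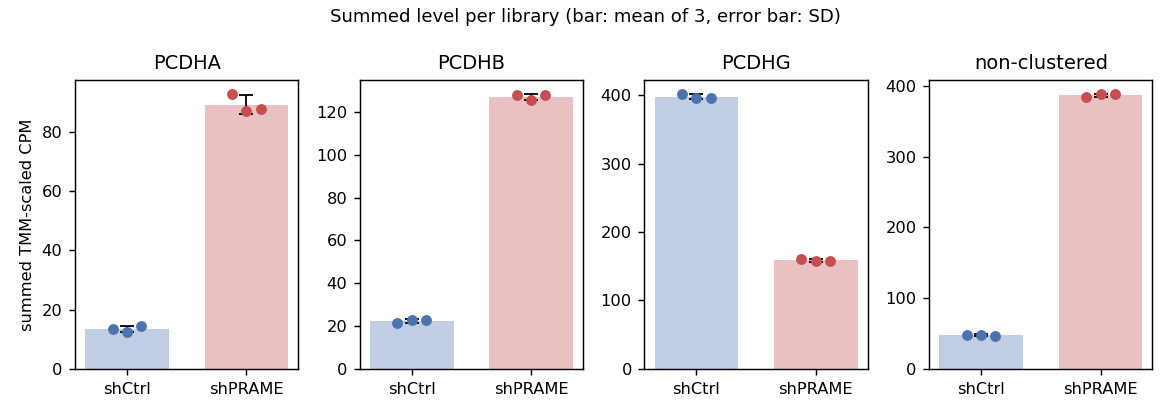
Summed TMM-scaled CPM of the genes of each cluster and of the non-clustered genes in each library. Bars are means of 3 libraries, error bars are SD and points are libraries; the alpha, beta and non-clustered sums are higher and the gamma sum lower in shPRAME.

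The non-clustered genes included the greatest gains. PCDH7, which binds protein phosphatase 1 through its cytoplasmic tail (NCBI gene 5099, chromosome 4, 30720369 to 31146800, GRCh38), had no count in any shCtrl library. It had 956, 995 and 1033 counts in shPRAME, or 29.8 ± 0.876 CPM, at least 965.7-fold higher against 3 counts over the shCtrl group (edgeR adjusted p = 1.08e-16). The transcript was thus undetected in every control library and at a moderate level in every shPRAME library.

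PCDH10 became the most abundant protocadherin transcript per length. This delta-2 protocadherin recruits the WAVE actin-nucleation complex (chromosome 4, 133149294 to 133208606). Counts were 292, 292 and 272 in shCtrl and 7958, 9073 and 8997 in shPRAME. Its level rose 29.5-fold, from 8.79 ± 0.148 to 259.4 ± 4.33 CPM (log2 fold change 4.88, SE 0.0369, edgeR adjusted p = 4.98e-22). The divergent noncoding RNA PCDH10-DT, whose gene starts head to head with it, had 1, 0 and 1 counts in shCtrl against 159, 186 and 159 in shPRAME. The summed counts differ 244.7-fold, and the exact 95% interval from counting error runs from 67.4 to 2026 (edgeR adjusted p = 3.39e-13). Both transcripts of this locus thus rose in all 3 shPRAME libraries, PCDH10-DT from next to nothing.

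The stretch between the annotated ends of PCDH10-DT and PCDH10 is 177 bases long and is printed because both genes start at its edges. It is given on the plus strand of GRCh38.p14 with each CG dinucleotide in capitals, of which it holds 20. RefSeq promoters held a median of 12 CG in the 250 bases before the start, with quartiles at 3 and 24. For a gene with several promoter entries the one with the most CG was taken. The stretch and the promoters differ in length, and PCDH10 has no promoter entry. The non-clustered genes with an entry held a median of 11. Whether CG content goes with the gains was not tested.
PCDH10-DT to PCDH10, chr4:133149117-133149293: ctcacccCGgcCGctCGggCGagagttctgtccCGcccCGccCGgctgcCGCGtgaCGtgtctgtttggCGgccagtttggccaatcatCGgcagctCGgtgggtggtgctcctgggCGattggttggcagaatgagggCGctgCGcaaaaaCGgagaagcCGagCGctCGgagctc

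PCDH9, a delta-1 protocadherin of the nervous system (chromosome 13, 66302834 to 67230336), had 24, 14 and 14 counts in shCtrl against 684, 759 and 788 in shPRAME. It rose 41.9-fold, from 0.531 ± 0.156 to 22.2 ± 0.505 CPM (log2 fold change 5.37, SE 0.119, edgeR adjusted p = 1.46e-16). An overlapping lncRNA gene, LOC105370247, cannot be told apart from it if the counting ignored strand. Its 3 antisense genes in the files, PCDH9-AS2, PCDH9-AS3 and PCDH9-AS4, had no count in any library.

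PCDH18, of the same delta-2 group as PCDH10 and on the same chromosome (137518918 to 137532494), had 313, 314 and 308 counts in shCtrl against 1158, 1257 and 1144 in shPRAME. It rose 3.70-fold to 35.5 ± 2.12 CPM (edgeR adjusted p = 1.96e-14). PCDH1, the delta-1 member known from airway epithelium, had 879, 812 and 720 counts against 1182, 1256 and 1378 and rose 1.54-fold to 38.0 ± 1.75 CPM (edgeR adjusted p = 5.02e-09). These genes were expressed in control cells already, and their groups did not overlap either.

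PCDH15, which forms the tip links of inner ear hair cells, had no count in shCtrl and 20, 15 and 26 in shPRAME, at least 19.7-fold higher (edgeR adjusted p = 2.26e-06) but only 0.609 ± 0.161 CPM. A lncRNA gene, LOC105378311, and a snoRNA gene overlap it, with the same limit as for PCDH9. PCDH12, described as an endothelial cadherin, was the non-clustered gene that fell. It had 128, 151 and 126 counts in shCtrl against 30, 30 and 36 in shPRAME, a drop from 4.16 ± 0.421 to 0.957 ± 0.0862 CPM (edgeR adjusted p = 1.05e-09). It overlaps RNF14, which fell from 64.1 ± 1.17 to 44.2 ± 1.51 CPM, so that its counts are uncertain if strand was ignored. Of 6 endothelial markers, CDH5 and CLDN5 had no count, and the summed level of the list was 0.292 to 0.946 CPM in shCtrl and 3.01 to 3.85 CPM in shPRAME. Most of the shPRAME sum was TEK, which had 1 count in each shCtrl library and 77, 99 and 105 in shPRAME (edgeR adjusted p = 7.67e-12). TEK entered the test through its shPRAME counts, and KDR, the other marker tested, did not pass.

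The other 6 non-clustered genes were too low to test. PCDH11X had 5, 3 and 2 counts in shPRAME and none in shCtrl, and its near-identical copy PCDH11Y had none in any library. PCDH19, mutated in an epilepsy syndrome, had 2 counts in 1 shPRAME library, and PCDH8, a synaptic member, 1 count in 1 shCtrl library. PCDH17 and PCDH20 had no count, which allows up to 0.0880 to 0.0973 CPM per library as far as counting error goes. The gains were therefore carried by some family members, and others stayed at or near 0 in both groups.

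**Figure D2:**
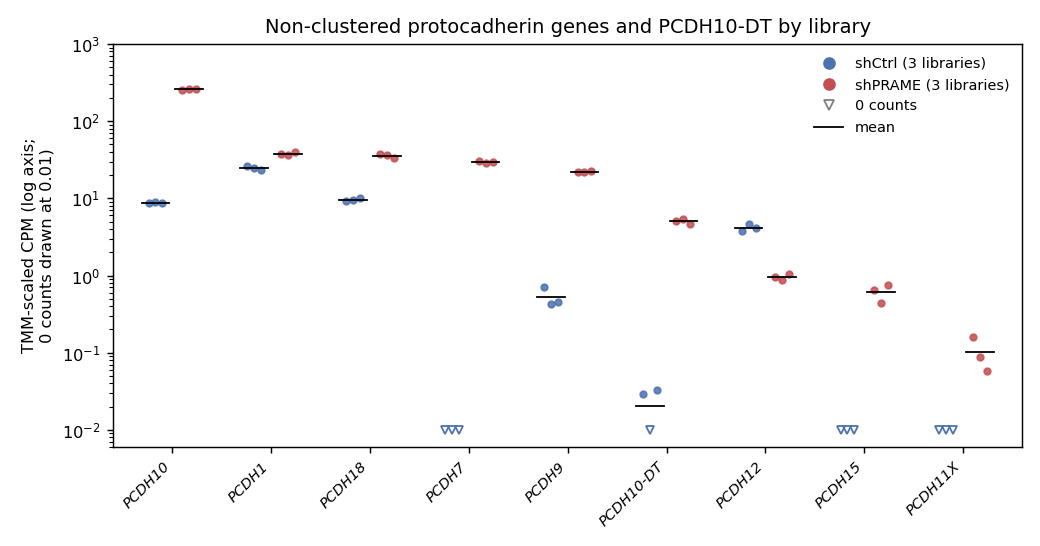
TMM-scaled CPM of the non-clustered protocadherin genes with more than 3 counts and of PCDH10-DT, on a log axis, with 1 point per library, a line at each mean and triangles for 0 counts. PCDH10, PCDH7 and PCDH9 show wide gaps between the groups, PCDH1 a narrow one, and PCDH12 is lower in shPRAME.

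Genes of the alpha and gamma clusters overlap by construction. In GENCODE release 29 (GRCh38) the longest spliced transcript of each alpha gene had 4 exons, with 2352 to 3427 bases of its own and 2866 bases shared with other alpha genes. For gamma genes the own part was 2272 to 2597 bases and the shared part 2181 to 2306. Beta genes are single exons and shared no base. Reads from the constant exons cannot be assigned to an isoform by themselves, and how they were counted is not given in the sources used here. Counts of a weak alpha or gamma isoform are uncertain for that reason, and beta genes resemble one another in sequence. The lncRNA gene LOC112267934 overlaps the genes PCDHA1 to PCDHA12 and cannot be told apart from them if the counting ignored strand.

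In the alpha cluster 13 of 15 genes rose, all at least 2-fold, none fell and 2 did not pass. Over all genes tested 37.7% rose, and 10.1% rose at least 2-fold. PCDHA6 had 28, 30 and 37 counts in shCtrl against 792, 858 and 917 in shPRAME, and rose 26.1-fold from 0.982 ± 0.194 to 25.6 ± 0.863 CPM (edgeR adjusted p = 9.71e-17). PCDHA7, the leading alpha isoform of control cells, had 91, 90 and 94 counts against 493, 455 and 449 and rose 4.94-fold to 15.8, 13.2 and 13.0 CPM (edgeR adjusted p = 1.93e-12). The order within the cluster changed with this. PCDHA6 made up 7.31% ± 1.08 of alpha counts in shCtrl and 28.7% ± 1.49 in shPRAME, and PCDHA7 21.2% ± 1.17 and 15.7% ± 1.16 (mean ± SD, n = 3 each, no test). PCDHA7 ranked first of 15 in shCtrl and PCDHA6 in shPRAME.

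Other alpha isoforms with large gains started under 1 CPM. PCDHA11 rose 22.2-fold from 0.251 ± 0.149 to 5.56 ± 0.529 CPM, PCDHA9 15.1-fold to 9.89 ± 0.425 CPM, PCDHA1 13.6-fold to 3.62 ± 0.577 CPM and PCDHA10 13.0-fold to 9.40 ± 1.31 CPM. PCDHAC1 rose 8.18-fold to 1.02 ± 0.0302 CPM and PCDHA12 5.61-fold to 0.573 ± 0.153 CPM. PCDHA9 to PCDHA12 are consecutive genes, PCDHA1 is the first of the cluster, and position was not tested.

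The other alpha isoforms that passed had smaller gains. PCDHA3 rose from 1.57 ± 0.419 to 7.58 ± 0.344 CPM, PCDHA2 from 0.364 ± 0.179 to 1.84 ± 0.415 CPM, PCDHAC2 from 0.959 ± 0.248 to 2.18 ± 0.528 CPM, PCDHA4 from 1.13 ± 0.512 to 2.46 ± 0.336 CPM and PCDHA5 from 1.35 ± 0.104 to 2.89 ± 0.208 CPM. PCDHA8 had 14, 47 and 16 counts in shCtrl against 16, 51 and 27 in shPRAME and did not pass (edgeR adjusted p = 0.613). Replicate 2 stands out in both groups. The log2 fold change was 1.00 without shCtrl replicate 2 (edgeR adjusted p = 0.0419) and -0.27 without shPRAME replicate 2 (edgeR adjusted p = 0.607). PCDHA13 had 41, 46 and 39 counts against 52, 68 and 46 and did not pass either (edgeR adjusted p = 0.0935, and 0.0293 without shPRAME replicate 3). The printed windows of PCDHA8 and PCDHA6 differ by 2 letters, and whether these bear on the levels was not tested.

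In the beta cluster 14 of 16 genes were tested and 14 rose, 13 of them at least 2-fold, against 37.7% and 10.1% of all genes tested. PCDHB5 had 69, 81 and 53 counts in shCtrl against 926, 951 and 1032 in shPRAME, and rose from 2.04, 2.48 and 1.72 CPM to 29.6, 27.6 and 29.9 CPM (log2 fold change 3.80, SE 0.0920, edgeR adjusted p = 4.64e-16). PCDHB6 followed with 51, 51 and 49 counts against 599, 651 and 628, 12.1-fold higher at 18.7 ± 0.505 CPM (edgeR adjusted p = 6.93e-16). PCDHB16 had 107, 113 and 96 counts against 639, 790 and 798 and rose 6.83-fold to 22.1 ± 1.48 CPM. PCDHB2, the leading beta gene of control cells at 6.91 ± 0.470 CPM, rose less, 2.99-fold to 20.7 ± 0.427 CPM. Its share of beta counts was 30.9% ± 2.48 in shCtrl and 16.3% ± 0.278 in shPRAME, while that of PCDHB5 was 9.27% ± 1.62 and 22.8% ± 0.733.

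Further beta genes rose from under 1 CPM, namely PCDHB12 to 5.79 ± 0.391 CPM, PCDHB11 to 5.80 ± 0.352 CPM, PCDHB7 to 3.99 ± 0.244 CPM, PCDHB9 to 2.84 ± 0.378 CPM, PCDHB8 to 2.42 ± 0.337 CPM and PCDHB10 to 1.69 ± 0.393 CPM. PCDHB15 rose from 1.79 ± 0.251 to 6.43 ± 0.200 CPM, PCDHB14 from 1.62 ± 0.173 to 4.52 ± 0.260 CPM and PCDHB13 from 1.44 ± 0.113 to 2.39 ± 0.440 CPM. PCDHB13 had the smallest log2 fold change of the tested beta genes, 0.72, and PCDHB5 the largest, 3.80. Their windows above have 21 of 23 letters in common, and whether the letters bear on the changes was not tested. PCDHB3, at 0.175 ± 0.0244 and 0.368 ± 0.0320 CPM, passed narrowly (edgeR adjusted p = 0.0244). It missed the threshold without shCtrl replicate 1, shCtrl replicate 2 or shPRAME replicate 3 (edgeR adjusted p = 0.0722, 0.0525 and 0.0733).

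PCDHB4 had 2 counts in each shCtrl library and 7, 12 and 9 in shPRAME, too few to be tested, and PCDHB1, which stands apart at the head of the cluster, had none in shCtrl and 2, 2 and 0 in shPRAME. The 3 beta pseudogenes rose too. PCDHB17P rose from 0.397 ± 0.143 to 2.63 ± 0.392 CPM, PCDHB18P from 0.808 ± 0.112 to 1.79 ± 0.491 CPM and PCDHB19P from 0.247 ± 0.0115 to 0.625 ± 0.179 CPM. The gamma pseudogene PCDHGB8P, with 2 to 10 counts, and the antisense RNA PCDHB1-AS1, with at most 2, were not tested.

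The gamma cluster was split. Of 22 genes tested, 6 rose, 8 fell and 8 did not pass. Its shares of higher and lower genes, 27.3% and 36.4%, lay below and near the 37.7% and 36.8% of all genes. Its fall in summed level came from 2 isoforms with high control levels. PCDHGC3, a C-type isoform at the end of the cluster that is expressed beyond the nervous system (chromosome 5, 141475966 to 141512975), had 10587, 10101 and 9419 counts in shCtrl against 2744, 3112 and 3062 in shPRAME. It fell 3.48-fold, from 309.1 ± 3.89 to 88.9 ± 1.24 CPM (log2 fold change -1.80, SE 0.0254, edgeR adjusted p = 4.76e-19). PCDHGB5 had 1647, 1580 and 1460 counts against 223, 183 and 224 and fell 7.63-fold, from 48.1 ± 0.712 to 6.31 ± 0.927 CPM (log2 fold change -2.94, SE 0.0694, edgeR adjusted p = 3.30e-16). No shPRAME library came near a shCtrl library in either gene.

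Without PCDHGC3 and PCDHGB5, a split chosen after their values were seen, the remaining gamma genes summed to 40.5 ± 1.97 CPM in shCtrl and 63.2 ± 2.02 CPM in shPRAME. PCDHGC3 took 77.7% ± 0.402 of gamma counts in shCtrl and 56.1% ± 1.34 in shPRAME. PCDHGB5 took 12.1% ± 0.116 and 3.98% ± 0.549, and PCDHGB1 2.00% ± 0.169 and 18.0% ± 0.348. PCDHGC3 remained the leading gamma isoform, and the next place passed from PCDHGB5 to PCDHGB1.

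PCDHGB1 was the main gamma isoform that rose. It had 250, 256 and 265 counts in shCtrl against 918, 977 and 959 in shPRAME, 3.59-fold higher at 28.5 ± 0.815 CPM (edgeR adjusted p = 5.80e-14). PCDHGA2 rose from 0.614 ± 0.172 to 3.36 ± 0.477 CPM, PCDHGA11 from 0.867 ± 0.149 to 3.38 ± 0.367 CPM, PCDHGA3 from 0.225 ± 0.0714 to 0.826 ± 0.194 CPM, PCDHGA10 from 0.624 ± 0.158 to 1.17 ± 0.0331 CPM and PCDHGB2 from 2.09 ± 0.335 to 2.94 ± 0.269 CPM. Of 12 A genes 4 rose (33.3%) and 2 fell (16.7%), and of 7 B genes 2 rose (28.6%) and 3 fell (42.9%). Over all genes tested 37.7% rose and 36.8% fell.

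All 3 C-type gamma isoforms fell, where 36.8% of all genes tested did. Besides PCDHGC3, PCDHGC4 fell from 2.21 ± 0.682 to 1.18 ± 0.325 CPM and PCDHGC5 from 1.56 ± 0.563 to 0.680 ± 0.326 CPM. PCDHGB3 fell from 1.45 ± 0.245 to 0.854 ± 0.227 CPM and PCDHGB6 from 1.24 ± 0.161 to 0.632 ± 0.0950 CPM. These weak isoforms share their constant exons with PCDHGC3, and whether its reads entered their counts was not tested. PCDHGA9 passed at edgeR adjusted p = 0.0113 with 33, 29 and 58 counts against 29, 7 and 19, and its groups overlapped. It did not pass without shCtrl replicate 3 (log2 fold change -0.75, adjusted p = 0.100) or without shPRAME replicate 2 (-0.75, adjusted p = 0.0663).

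PCDHGA7, with 9.57 ± 0.165 and 8.31 ± 0.801 CPM, passed narrowly (edgeR adjusted p = 0.0405). It missed the threshold when any library other than shPRAME replicate 3 was left out (edgeR adjusted p = 0.0555, 0.0860 and 0.0668 without shCtrl replicates 1, 2 and 3, and 0.107 and 0.197 without shPRAME replicates 1 and 2). PCDHGB4, whose window equals that of PCDHGB5, had 37, 16 and 41 counts in shCtrl against 22, 33 and 13 in shPRAME. It did not pass (edgeR adjusted p = 0.195, and 0.0260 without shCtrl replicate 2). In control cells PCDHGB4 stood at 0.971 ± 0.433 CPM, far under the 48.1 CPM of PCDHGB5 with a transcript of like length. Whether the letters of the window bear on these levels was not tested.

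The other 7 gamma genes did not pass, and their groups overlapped. PCDHGA1 stood at 3.65 ± 0.286 and 3.50 ± 0.449 CPM in shCtrl and shPRAME, PCDHGA6 at 2.01 ± 0.260 and 2.02 ± 0.272 CPM and PCDHGA4 at 1.25 ± 0.0111 and 1.37 ± 0.395 CPM. PCDHGA12 stood at 1.35 ± 0.357 and 1.58 ± 0.137 CPM, PCDHGA5 at 0.683 ± 0.171 and 0.656 ± 0.212 CPM, PCDHGB7 at 0.616 ± 0.103 and 0.511 ± 0.206 CPM and PCDHGA8 at 0.352 ± 0.136 and 0.478 ± 0.0390 CPM. A value that misses the threshold does not show that the level was the same.

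**Figure D3:**
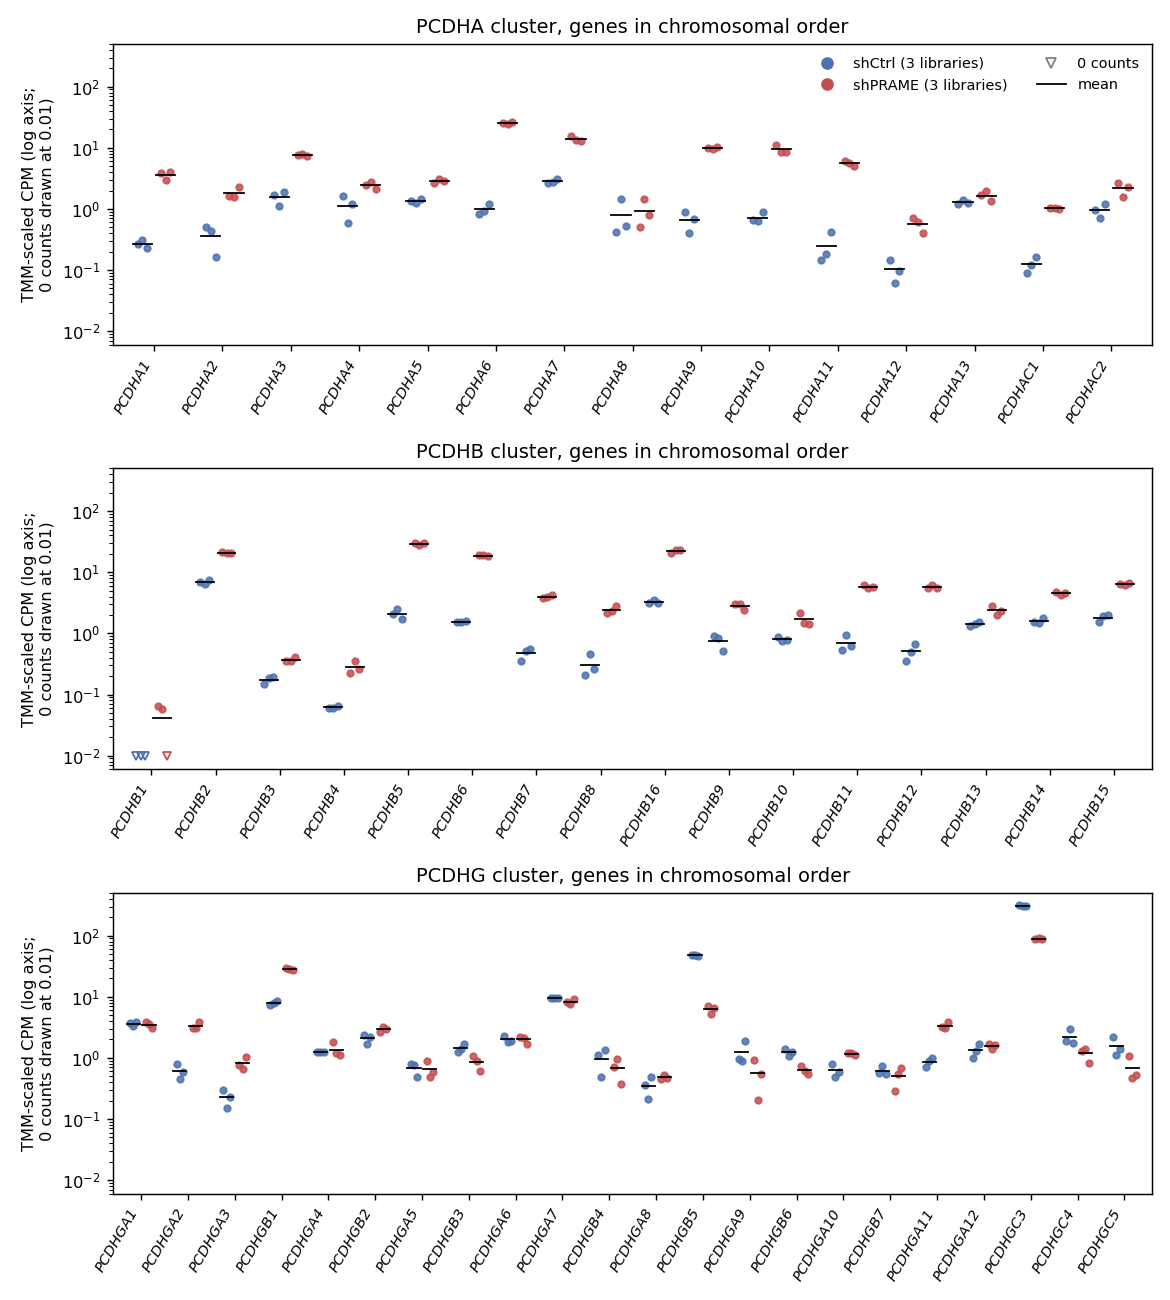
TMM-scaled CPM of every clustered protocadherin gene in chromosomal order, on a log axis, with 1 point per library, a line at each mean and triangles for 0 counts. Alpha and beta genes lie higher in shPRAME almost throughout, whereas PCDHGB5 and PCDHGC3 drop and PCDHGB1 and several weaker gamma genes rise.

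Per length of transcript the order of the family changed. In shCtrl the level was 65.4 CPM per kb for PCDHGC3, 10.5 for PCDHGB5 and 5.16 for PCDH1, with PCDHGA7 next at 2.08. In shPRAME it was 30.6 CPM per kb for PCDH10, 18.8 for PCDHGC3, 8.52 for PCDHB5, 7.94 for PCDH1 and 6.21 for PCDHGB1. Lengths are those of the longest GENCODE transcript, with more than 1 exon for alpha and gamma genes, and the isoforms in these cells may be shorter.

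Genes around the clusters did not share the gains. Of 33 tested genes of other families within 1 Mb of the clusters, 26 fell, 3 rose and 4 did not pass, so that 78.8% fell and 9.09% rose, where 36.8% and 37.7% of all genes tested did, with a median log2 fold change of -0.34. TAF7, a subunit of the general transcription factor TFIID encoded between the beta and gamma clusters, fell from 131.7 ± 2.34 to 116.0 ± 1.41 CPM. DIAPH1, an actin-nucleating formin next to the gamma cluster, fell from 269.6 ± 1.64 to 253.5 ± 2.14 CPM. The genes that rose were SPRY4 and SPRY4-AS1, at the far edge, and TMCO6. They and the neighbours given with values here are named after their values were seen.

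**Figure D4:**
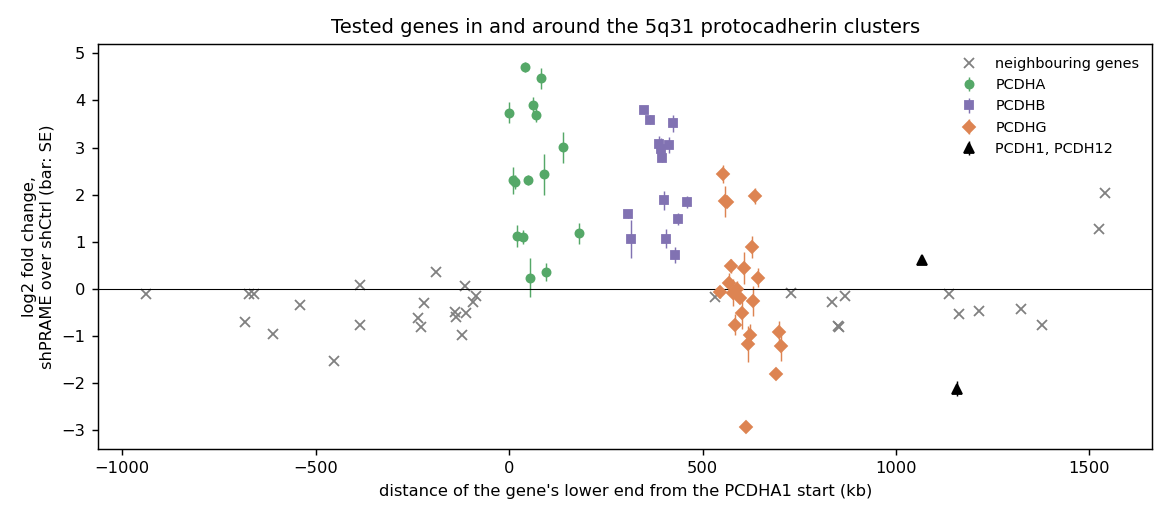
Log2 fold change of tested genes by distance in kb from the PCDHA1 start, with the standard error for protocadherins. Alpha and beta genes lie above 0, gamma genes on both sides of it, and neighbouring genes (crosses) mostly between 0 and -1.

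Regulators and partners of protocadherins are read against the 37.7% of all genes tested that rose and the 36.8% that fell. Among 14 genes of CTCF, cohesin and loop control 8 rose (57.1%) and 5 fell (35.7%), none of them 2-fold, with a median log2 fold change of 0.07. The cohesin subunit RAD21 rose from 582.4 ± 24.1 to 985.3 ± 4.26 CPM and its regulator PDS5A from 201.8 ± 5.34 to 264.9 ± 3.82 CPM. The cohesin loader NIPBL fell from 158.6 ± 5.85 to 119.2 ± 1.63 CPM and PDS5B from 128.1 ± 1.89 to 95.0 ± 2.96 CPM. Of 19 genes of DNA methylation and repressive chromatin 9 rose (47.4%) and 5 fell (26.3%), none 2-fold. SMCHD1, a chromatin protein known to restrain clustered protocadherins, rose from 145.0 ± 0.745 to 196.5 ± 1.09 CPM, and TET3, which oxidises methylated cytosine, from 58.6 ± 1.87 to 85.1 ± 1.11 CPM. TRIM28, a corepressor of zinc finger proteins, fell from 544.3 ± 6.98 to 469.5 ± 13.9 CPM.

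The WAVE complex and Rac list was mostly lower, since 8 of its 11 genes fell (72.7%) and 1 rose (9.09%), against 36.8% and 37.7% of all genes tested. NCKAP1, the subunit that PCDH10 binds, fell from 371.3 ± 9.93 to 241.0 ± 2.81 CPM and WASF2 from 203.8 ± 2.03 to 134.2 ± 3.01 CPM, while CYFIP2 rose from 18.7 ± 0.483 to 22.4 ± 0.488 CPM. Of 17 tested partners and proteases 8 rose (47.1%) and 6 fell (35.3%), near the 37.7% and 36.8% of all genes tested. The kinase gene FYN fell from 136.9 ± 2.60 to 56.5 ± 0.224 CPM and PSEN2, of gamma-secretase, from 21.0 ± 0.555 to 16.7 ± 0.600 CPM. GSK3B, a Wnt pathway kinase, rose from 163.0 ± 4.01 to 379.7 ± 13.4 CPM and SET, a PCDH7-binding phosphatase inhibitor, from 531.8 ± 7.53 to 681.9 ± 12.9 CPM.

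Of 11 tested genes of the other FAT, DCHS, CELSR, CLSTN and CDHR cadherins 8 rose (72.7%) and 2 fell (18.2%), against 37.7% and 36.8% of all genes tested, with a median log2 fold change of 0.41. The giant cadherin FAT1 rose from 780.2 ± 8.33 to 1036 ± 18.4 CPM and CELSR1, of planar cell polarity, from 6.72 ± 0.406 to 15.7 ± 0.230 CPM. The largest gains of the list were at low levels. FAT4 had 2, 8 and 1 counts in shCtrl against 67, 114 and 89 and rose 23.9-fold to 2.68 ± 0.587 CPM, DCHS1 rose 3.67-fold to 5.20 ± 0.588 CPM, and DCHS2 had no count against 15, 29 and 17, at least 19.7-fold higher. FAT4 and DCHS2, with under 10 counts in every shCtrl library, entered the test through their shPRAME counts. They could hardly be called lower and are among the 8 that rose. The calsyntenin genes CLSTN1 and CLSTN3 fell, from 173.3 ± 2.03 to 150.0 ± 4.44 CPM and from 6.14 ± 0.0962 to 1.55 ± 0.137 CPM.

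Markers of other cell types that express protocadherins moved as well. Their counts are read against the 37.7% of all genes tested that rose and the 36.8% that fell. Of 8 fibroblast markers 7 were tested, 5 rose (71.4%) and 2 fell (28.6%). PDGFRB, the highest, fell from 64.3 ± 1.85 to 17.4 ± 1.32 CPM, and FAP from 1514, 1540 and 1434 counts to 866, 933 and 904. The collagen gene COL1A2 had no count in shCtrl and stood at 21.6 ± 1.31 CPM in shPRAME, LUM rose from 0.0102 ± 0.0177 to 9.88 ± 0.178 CPM and COL3A1 from 0.0305 ± 0.0296 to 2.58 ± 0.631 CPM, these 3 being named after their values were seen. The summed fibroblast level was 112.5 to 116.3 CPM in shCtrl and 88.0 to 95.2 CPM in shPRAME. Of 6 neuronal markers 5 were tested, 3 rose (60%) and 2 fell (40%). SNAP25 rose from 1, 0 and 0 counts to 27, 43 and 39, MAP2 from 2, 0 and 3 counts to 43, 51 and 33 and TUBB3 from 187.1 ± 1.68 to 215.0 ± 9.67 CPM. SYP fell from 2.98 ± 0.412 to 1.02 ± 0.143 CPM and SYN1 4.89-fold from 1.69 ± 0.128 to 0.345 ± 0.109 CPM, and RBFOX3, too low to test, stood at no count and 0.220 ± 0.0151 CPM. The summed neuronal level was 190.2 to 194.2 CPM in shCtrl and 207.9 to 226.0 CPM in shPRAME. All 3 tested of 5 leukocyte markers rose, CD68 from 43.9 ± 1.16 to 70.6 ± 0.766 CPM, the lysozyme gene LYZ to 1.31 ± 0.155 CPM and PTPRC, which encodes CD45, from no count to 0.925 ± 0.199 CPM, with CD3E at 0 and sums of 42.8 to 45.1 and 72.1 to 74.0 CPM. Of 5 keratinocyte markers KRT5, KRT1 and TP63 had no count, KRT10 fell from 28.1 ± 1.08 to 23.4 ± 0.613 CPM, KRT14 stood at 0.326 ± 0.128 and 0.209 ± 0.0205 CPM, and sums were 27.7 to 29.6 and 23.2 to 24.3 CPM. Of the markers that rose, 4 fibroblast (COL1A1, COL1A2, COL3A1, LUM), 2 neuronal (SNAP25, MAP2) and 2 leukocyte markers (LYZ, PTPRC) had under 10 counts in every shCtrl library, as had TEK above. These entered the test through their shPRAME counts and could hardly be called lower. The part of these markers' cell types in the protocadherin differences was not tested.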

How the data were processed

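Gene expression was measured by polyA RNA-seq in 3 shCtrl and 3 shPRAME libraries. Per the file headers, the deposited values are raw counts by NCBI gene identifier, and all are whole numbers. The submitters' processing notes name fastp, STAR, Salmon, GRCh38 and hg38, without roles, and how reads were counted is not given in the sources used here. Repeated identifiers (34 rows) were summed to 40895 genes, of which 40789 matched RefSeq. The test was edgeR's glmQLFTest (edgeR 4.0.16, R 4.3.3, 2-sided) after TMM scaling and filterByExpr, with group as the only term, over 15954 genes. Standard errors come from each log2 fold change and its quasi-likelihood F, by division through the square root.

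The members and lists were chosen with earlier results of these data known. Named were PRAME, protein-coding members with a mean of at least 0.5 CPM in either group, from each list the 2 genes per direction with the smallest adjusted p among those averaging 1 CPM or more over all libraries, and the 2 highest markers per cell type. Other genes were chosen after their values were seen, and some genes under this rule are not reported here. On simulated counts for shPRAME against shCtrl (15707 genes), 28, 40, 47 and 50 of 50 genes changed 1.2-fold, 1.5-fold, 2-fold and 4-fold were recovered, and 9 unchanged genes were called. Alternatives were RLE factors, library totals, other filters, DESeq2 1.42.0, limma-voom (limma 3.58.1), glmTreat, a replicate term and leaving out each library. Intervals cover counting error only.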

Additional observations from a re-analysis of the deposited data

How the results depend on the processing

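Of 52 protocadherin calls, 42 higher and 7 lower were kept in each of the 14 alternatives that tested the gene, and no called gene changed direction. The calls lost in at least 1 alternative were PCDHGA7, PCDHGA9 and PCDHB3. PCDHA8, PCDHA13 and PCDHGB4 gained a call when 1 library was left out, and PCDH11X and PCDHB4 without the filter on low counts. Numbers of members that rose ranged from 38, at a filter of 1 CPM in 3 libraries, to 45 without a filter, and of those that fell from 7 to 9. Against a fold of 1.2, 43 members rose and 8 fell, while over all genes 3921 rose and 3805 fell, down from 6008 and 5867, and over the lists of regulators, partners and other cadherins 20 rose and 10 fell, down from 34 and 26. With library totals, which shift the median gene by 0.05 on the log2 scale, the log2 ratio of summed levels was 2.55 for beta, -1.28 for gamma and 3.07 for non-clustered genes, against 2.50, -1.33 and 3.02 with TMM. With the replicate number as a block 42 members rose and 8 fell, and PCDHGA7 and PCDHB3 lost their calls (adjusted p = 0.0543 and 0.0536). Same-numbered libraries did not deviate together (r = -0.06, -0.11 and -0.10 across genes), so the numbers were not taken as a pairing. Isoforms under about 1 CPM rest on few counts, and at this depth their division among shared exons limits what can be said of them.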
